A study of Mus musculus with 4 samples.

Results

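Ifng, Il10, Il21, Il13, Csf2, Lif, Osm, Xcl1 and Tgfb1 encode 8 cytokines and 1 chemokine that activated NK cells can secrete, and they were picked by symbol from the count table as 9 of its 35798 named genes. All 9 had counts in every library and passed the filter on low counts. RNA was measured in Ly49H+ NK cells from spleen on D3.5 after infection with MCMV (murine cytomegalovirus). The cells came from wild-type donors carrying CD45.1 and from TNFR2 KO donors carrying CD45.2, and both kinds had been placed together in NSG hosts, immunodeficient mice that have no T, B or NK cells of their own but keep myeloid cells. There were 2 libraries per genotype, each from pooled spleens of 3 mice, and libraries of both genotypes with the same number shared a pool. The knockout removes TNFR2 from every cell of the donor rather than from NK cells only, CD45 allele and sort gate changed together with genotype, and all cells had been transferred and exposed to virus, so no uninfected level was measured here. The labels give no age per sample.

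The receptor Ly49H on mouse NK cells binds an MCMV protein on infected cells, and NK cells so engaged divide and release cytokines within days. IFN-gamma, encoded by Ifng, is their best known product and acts on macrophages and many other cells, while XCL1 attracts cross-presenting dendritic cells. IL-10 and TGF-beta1 restrain immune responses, GM-CSF (Csf2) acts on myeloid cells, IL-13 and IL-21 belong to the cytokine families of IL-4 and IL-2, and LIF and oncostatin M (Osm) signal through gp130.

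Of the 9 genes, 4 fell in TNFR2 KO NK cells (Il13, Il21, Lif and Tgfb1) and 2 rose (Il10 and Xcl1) at an adjusted p under 0.05, on the TMM scaling used throughout (a trimmed mean of gene ratios sets the library sizes), whereas scaling on NK lineage genes turned both increases into decreases. Among all 13822 genes tested, 26.2% fell and 24.2% rose at that threshold, so the 4 lower and 2 higher of the 9 are read against a background in which about as many genes passed as did not. Il13 alone also passed a log2-fold change of 1, which 11.8% of all genes did downward and 1.56% upward, with 0 of the 9 upward. The median log2-fold change of the 9 genes was -0.23, beside -0.003 for all genes tested. Ifng had a log2-fold change of 0.02 and did not pass the test. Because these were bulk samples, fewer cells making a transcript and less of the transcript per cell cannot be told apart.

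The sequence before the transcription start is shown for the 2 genes that fell most in TNFR2 KO cells, for Xcl1, which was higher on TMM scaling though lower on NK lineage scaling, and for Ifng, which did not pass the test. Each line gives the 250 bases upstream of the start, 5′ to 3′ on the strand of the gene, from RefSeq on GRCm38.p6. Capitals mark matches on either strand to TATAAA (the TATA box), GGAAA (the core that NFAT proteins bind), TTCNNNGAA (a STAT element) and TGTGGT (a RUNX element).
Il13, chr11:53634703-53634952, minus strand: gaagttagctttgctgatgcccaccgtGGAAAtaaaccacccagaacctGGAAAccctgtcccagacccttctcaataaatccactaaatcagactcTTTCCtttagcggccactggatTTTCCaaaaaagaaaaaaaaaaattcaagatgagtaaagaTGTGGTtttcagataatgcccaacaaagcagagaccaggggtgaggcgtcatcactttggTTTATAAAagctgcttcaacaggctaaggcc
Il21, chr3:37232637-37232886, minus strand: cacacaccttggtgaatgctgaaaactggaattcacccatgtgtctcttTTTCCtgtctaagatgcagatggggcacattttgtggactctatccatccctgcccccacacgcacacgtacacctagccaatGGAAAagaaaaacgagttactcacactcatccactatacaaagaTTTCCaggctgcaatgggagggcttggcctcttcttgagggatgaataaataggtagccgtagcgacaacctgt
Xcl1, chr1:164935523-164935772, minus strand: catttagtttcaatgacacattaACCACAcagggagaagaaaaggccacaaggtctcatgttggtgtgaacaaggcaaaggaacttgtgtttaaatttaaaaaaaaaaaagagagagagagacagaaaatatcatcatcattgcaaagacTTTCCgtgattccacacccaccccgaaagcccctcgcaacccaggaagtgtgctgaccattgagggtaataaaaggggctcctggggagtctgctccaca
Ifng, chr10:118440796-118441045, plus strand: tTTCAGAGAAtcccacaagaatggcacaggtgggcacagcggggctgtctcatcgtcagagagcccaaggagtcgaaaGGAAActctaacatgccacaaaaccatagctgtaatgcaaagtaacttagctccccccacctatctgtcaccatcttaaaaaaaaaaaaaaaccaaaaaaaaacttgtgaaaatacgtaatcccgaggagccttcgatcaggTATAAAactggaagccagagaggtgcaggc

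Such windows were found for 7 of the 9 genes, all but Il10 and Osm, and motifs were searched over 300 bases, 250 before and 50 after the start. TATAAA lay 30 bases before the start in Ifng and 29 bases before it in Il13, where it overlapped a match on the other strand, and it occurred in 13.62% of all 32851 windows. GGAAA was in 6 of the 7 windows (Csf2, Ifng, Il13, Il21, Lif and Xcl1) but also in 61.34% of all windows. A TGTGGT match was in Il13, Lif and Xcl1 and in 16.76% of all windows, and a TTCNNNGAA match was in Ifng and in 8.30%. The AP-1 element TGANTCA was in Lif and in 7.81% of windows. These matches are letters in a window and describe no binding.

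Libraries were even in depth, with 32713256 to 39543650 counts each, and values are given as CPM, the count relative to a library size scaled by TMM. Tnfrsf1b, which encodes TNFR2 and was the targeted gene, was at 264.7 and 268.6 CPM in wild-type and 55.1 and 58.6 CPM in TNFR2 KO libraries. The NK lineage list stood at a summed 25506 and 25430 CPM in wild-type and 45191 and 44724 CPM in TNFR2 KO libraries, with 50 of 54 tested genes higher and 3 lower on TMM scaling, and Gzma, its most abundant gene, which encodes granzyme A, was at 5831 and 5779 CPM against 12387 and 12140 CPM. Klra8, the gene of Ly49H, by which the cells had been sorted, was at 313.3 and 315.9 CPM in wild-type and 762.1 and 725.8 CPM in TNFR2 KO libraries. Markers of macrophages, neutrophils, basophils, dendritic cells, megakaryocytes and erythroid cells mostly moved the other way, while those of B cells did not. The sums of the stromal or endothelial and group 2 innate lymphoid lists were higher in TNFR2 KO libraries. Of 38 tested macrophage or monocyte markers, 33 were lower and 4 higher, with sums of 5014 and 4964 CPM in the wild-type libraries but 2374 and 2356 CPM in the TNFR2 KO libraries, and only Clec4f of the listed 41 was at 0 throughout. Of 19 tested basophil or mast cell markers, 17 were lower and 1 higher, with sums of 1534 CPM in both wild-type libraries against 229.4 and 229.9 CPM. The neutrophil list summed to 1191 and 1212 CPM against 131.4 and 129.2 CPM, with 19 of 20 tested genes lower, 1 higher and Stfa1 at 0. Lower and higher genes numbered 8 and 2 of 14 for dendritic cells or class II, 9 and 0 of 10 for megakaryocytes or platelets, 12 and 1 of 13 for erythroid cells, 1 and 2 of 5 for B cells (Iglc1 at 0) and 4 and 1 of 7 for stromal or endothelial cells (Ccl21a at 0). The most abundant gene of a list did not always move with it, as Itgam (0.94), Itgax (1.11), Car2 (0.98) and Pecam1 (0.31) of the macrophage, dendritic, erythroid and stromal lists had log2-fold changes above 0 on TMM scaling, Pecam1 alone of them below 0 on NK lineage scaling, whereas Mpo (-6.50), Itga2b (-3.92) and Lat (-0.17) of the neutrophil, megakaryocyte and T cell lists were below 0. Xcl1 and Ccl5 stand in the NK lineage list as well, as do Tbx21, Eomes and Il18rap.

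**Figure D1:**
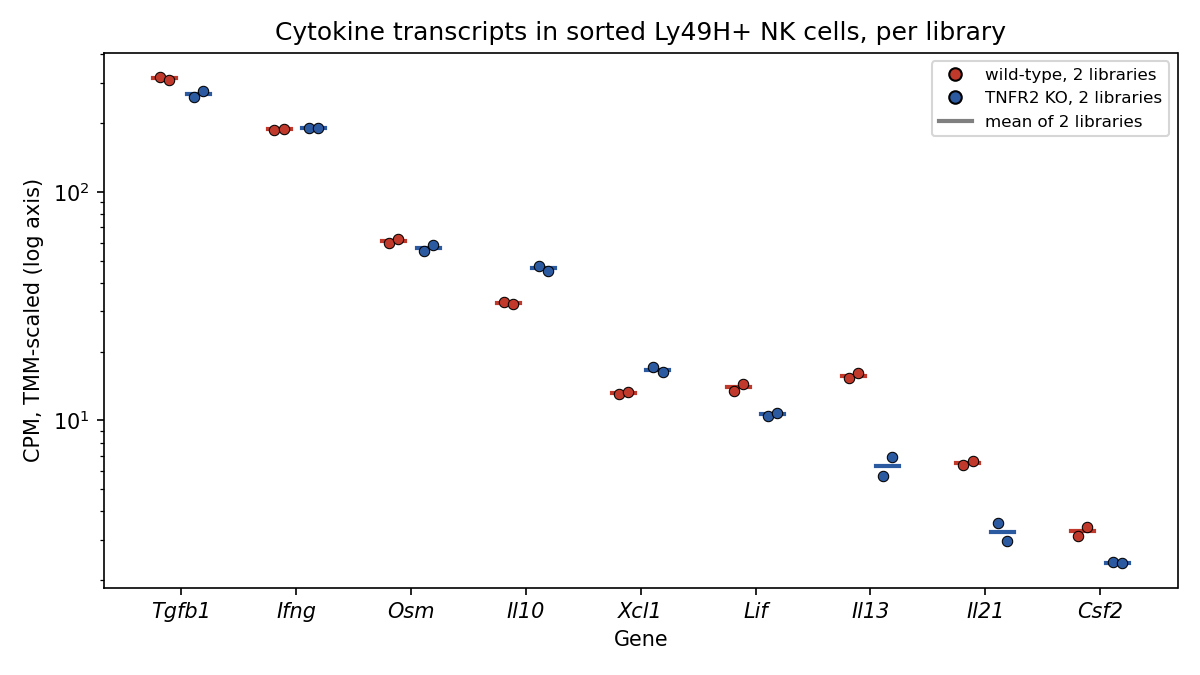
CPM on a log axis for each of the 9 cytokine genes, with points for single libraries and bars for the mean of 2 libraries per genotype. The widest gap between genotypes on this axis is that of Il13, at 15.3 and 16.1 CPM against 5.71 and 6.93 CPM.

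IFN-gamma, the main effector cytokine of NK cells, did not pass the test for its transcript on TMM scaling but was lower on NK lineage scaling. Ifng was at 187.3 and 188.0 CPM in wild-type and 190.9 and 189.3 CPM in TNFR2 KO libraries, from 6064 to 7385 counts. The TNFR2 KO libraries lay just above the wild-type ones with no overlap, but by less than 4 CPM in any pair. The log2-fold change was 0.02 (SE 0.0274, 95% interval -0.04 to 0.08), with an adjusted p of 0.601 in edgeR's test, so an increase beyond 0.08 or a decrease beyond 0.04 lay outside the interval on this scaling. The value depended on the scaling, at -0.04 with library size alone, which did not pass, and at -0.63 with NK lineage scaling, which did (adjusted p = 2.21e-09 in edgeR's test). Ifng lies on chromosome 10 of GRCm38 (plus strand) at 118441046 to 118445892, and 22.6% of its 31-base stretches also occur in Gm49751, a gene on the same strand that overlaps it and is not in the count table.

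XCL1, the chemokine that draws dendritic cells carrying XCR1, had more transcript in TNFR2 KO cells on TMM scaling and less on NK lineage scaling. Xcl1 was at 13.1 and 13.3 CPM in wild-type and 17.1 and 16.3 CPM in TNFR2 KO libraries. Both TNFR2 KO libraries were above both wild-type libraries, by more than the duplicates of either genotype differed. The log2-fold change was 0.34 (SE 0.0819, 95% interval 0.16 to 0.52, adjusted p = 0.00439 in edgeR's test), a 1.26-fold increase that became -0.31 with NK lineage scaling. Xcl1 lies on chromosome 1 (minus strand) at 164931644 to 164935527, and 14.2% of its 31-base stretches occur in Gm20743 on the opposite strand.

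IL-10, a cytokine that dampens macrophage and dendritic cell responses, showed the largest increase of the 9 on TMM scaling and a decrease on NK lineage scaling. Il10 was at 33.0 and 32.2 CPM in wild-type and 47.3 and 45.2 CPM in TNFR2 KO libraries. The genotypes were well apart, and the duplicates lay close together in both groups. The log2-fold change was 0.51 (SE 0.0507, 95% interval 0.40 to 0.62, adjusted p = 4.03e-06 in edgeR's test), or 1.42-fold, and 92.4% of all genes tested had a lower log2-fold change, but NK lineage scaling gave -0.15. Il10 lies on chromosome 1 (plus strand) at 131019845 to 131024974.

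TGF-beta1, the other cytokine of the set that restrains immune responses, fell on both scalings, with a log2-fold change of -0.23 on TMM scaling and of -0.88 on NK lineage scaling (adjusted p = 4.16e-10 in edgeR's test). Tgfb1 was at 316.8 and 309.5 CPM in wild-type and 261.0 and 275.1 CPM in TNFR2 KO libraries, from 8812 to 12016 counts. Both TNFR2 KO libraries were below both wild-type ones, although they differed from each other by more than the wild-type libraries did. The log2-fold change was -0.23 (SE 0.0304, 95% interval -0.29 to -0.16, adjusted p = 5.65e-05 in edgeR's test), so that the level fell by 14.5%. Macrophages are another known source of Tgfb1. The macrophage or monocyte sum was lower in TNFR2 KO libraries, as given above, and its part in the Tgfb1 result was not tested. Tgfb1 lies on chromosome 7 (plus strand) at 25687002 to 25705077.

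IL-13, a cytokine of type 2 immunity that basophils, mast cells and group 2 innate lymphoid cells also make, had the largest change of the 9. Il13 was at 15.3 and 16.1 CPM in wild-type and 5.71 and 6.93 CPM in TNFR2 KO libraries, from 579 and 595 against 221 and 222 counts. Wild-type levels were thus more than double those in TNFR2 KO libraries, and the 2 TNFR2 KO libraries varied more, with a coefficient of variation of 13.6%, than the wild-type ones, at 3.93%. The log2-fold change was -1.32 (SE 0.115, 95% interval -1.57 to -1.07, adjusted p = 1.12e-06 in edgeR's test), or 2.49-fold lower. Leaving out any one library kept Il13 past the threshold of 1, with values between -1.45 and -1.17. Only 10.6% of all genes tested had a lower value. Il13 lies on chromosome 11 (minus strand) at 53631324 to 53634702, and shared no 31-base stretch with other genes.

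The basophil or mast cell markers fell alongside Il13. Mcpt8, a protease of basophils, was at 305.1 and 301.0 CPM in wild-type and 5.97 and 6.87 CPM in TNFR2 KO libraries, and Prss34, another basophil protease and the most abundant gene of the list, was at 588.7 and 590.8 CPM against 8.66 and 7.55 CPM. The median log2-fold change of that list was -3.54, and no marker was at 0 in all libraries. The 11 tested markers of group 2 innate lymphoid cells included 3 lower and 1 higher gene and had a median of -0.10. The higher gene was Klrg1 (log2-fold change 0.78), the most abundant of that list, which stands in the NK lineage list too. A lower gene is shared with the basophil or mast cell list, and Gata3 with the inducers given below. Several others were below 1 CPM in every library, so the list measures these cells poorly. The part of either cell type in the Il13 result was not tested.

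IL-21, a cytokine of the IL-2 family best known from T cells, had the second largest decrease. Il21 was at 6.41 and 6.62 CPM in wild-type and 3.54 and 2.97 CPM in TNFR2 KO libraries, from 243 and 244 against 137 and 95 counts. TNFR2 KO levels were near 50% of wild-type levels in both libraries, and the groups did not overlap. The log2-fold change was -0.996 (SE 0.154, 95% interval -1.33 to -0.66, adjusted p = 0.000172 in edgeR's test). Il21 therefore sat at the threshold of 1 and was past it without wild-type replicate 1 or without TNFR2 KO replicate 1, when 2 of the 9 genes passed both thresholds. It was past 1 as well with library size alone (-1.06) and with NK lineage scaling (-1.65). T cell markers summed to 1996 and 1982 CPM in wild-type and 1806 and 1827 CPM in TNFR2 KO libraries, with 9 of 16 lower, 2 higher, a median log2-fold change of -0.19 and none at 0, and their part in the Il21 result was not tested. Il21 lies on chromosome 3 (minus strand) at 37222759 to 37232636, and 8.96% of its 31-base stretches occur in other genes, mostly in the antisense gene Gm12534.

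GM-CSF, which supports and activates myeloid cells, rested on the fewest counts of the set. Csf2 was at 3.14 and 3.42 CPM in wild-type and 2.40 and 2.37 CPM in TNFR2 KO libraries, from 119 and 126 against 93 and 76 counts. Both TNFR2 KO libraries were lower, but the smallest count alone carries a counting error of 11.5%. The log2-fold change of -0.46 (SE 0.187, 95% interval -0.87 to -0.05) had an adjusted p of 0.0617 in edgeR's test and did not pass. It did pass with library size alone, at -0.52, and with NK lineage scaling, at -1.11, where it was past both thresholds. Csf2 lies on chromosome 11 (minus strand) at 54247271 to 54249667, and 9.22% of its 31-base stretches occur in other genes, mostly in the antisense gene Gm12223.

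LIF and oncostatin M, which share the receptor chain gp130, lie next to each other on the plus strand of chromosome 11, with Osm from 4236420 to 4241026 and Lif from 4257557 to 4272514, 16.5 kb apart. Lif was at 13.5 and 14.4 CPM in wild-type and 10.5 and 10.8 CPM in TNFR2 KO libraries. The gap between genotypes exceeded the spread of either pair, and the log2-fold change was -0.39 (SE 0.0943, 95% interval -0.60 to -0.18, adjusted p = 0.00432 in edgeR's test). Without wild-type replicate 2 it was -0.33 and missed the threshold, with an adjusted p of 0.0545 in edgeR's test. Osm was at 59.9 and 62.4 CPM in wild-type and 55.1 and 58.2 CPM in TNFR2 KO libraries. Its groups were separated by 1.6 CPM only, less than the spread within either pair. The log2-fold change of -0.11 (SE 0.0458, 95% interval -0.21 to -0.01) had an adjusted p of 0.0622 in edgeR's test and did not pass. It was -0.059 without TNFR2 KO replicate 1, -0.072 without wild-type replicate 2 and -0.15 without TNFR2 KO replicate 2, and only the last of these passed. It also passed with library size alone (-0.17), with a mean of at least 10 CPM (-0.15) and with NK lineage scaling (-0.76).

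In all 9 genes the genotypes did not overlap in CPM, 6 of them lower and 3 higher in TNFR2 KO libraries. The same held for 74.0% of all genes tested, so absence of overlap sets the 9 little apart. For one gene, an exact two-sided permutation test with 2 libraries per genotype reaches 0.333 at the lowest, so the p-values come from the model fitted across all genes.

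**Figure D2:**
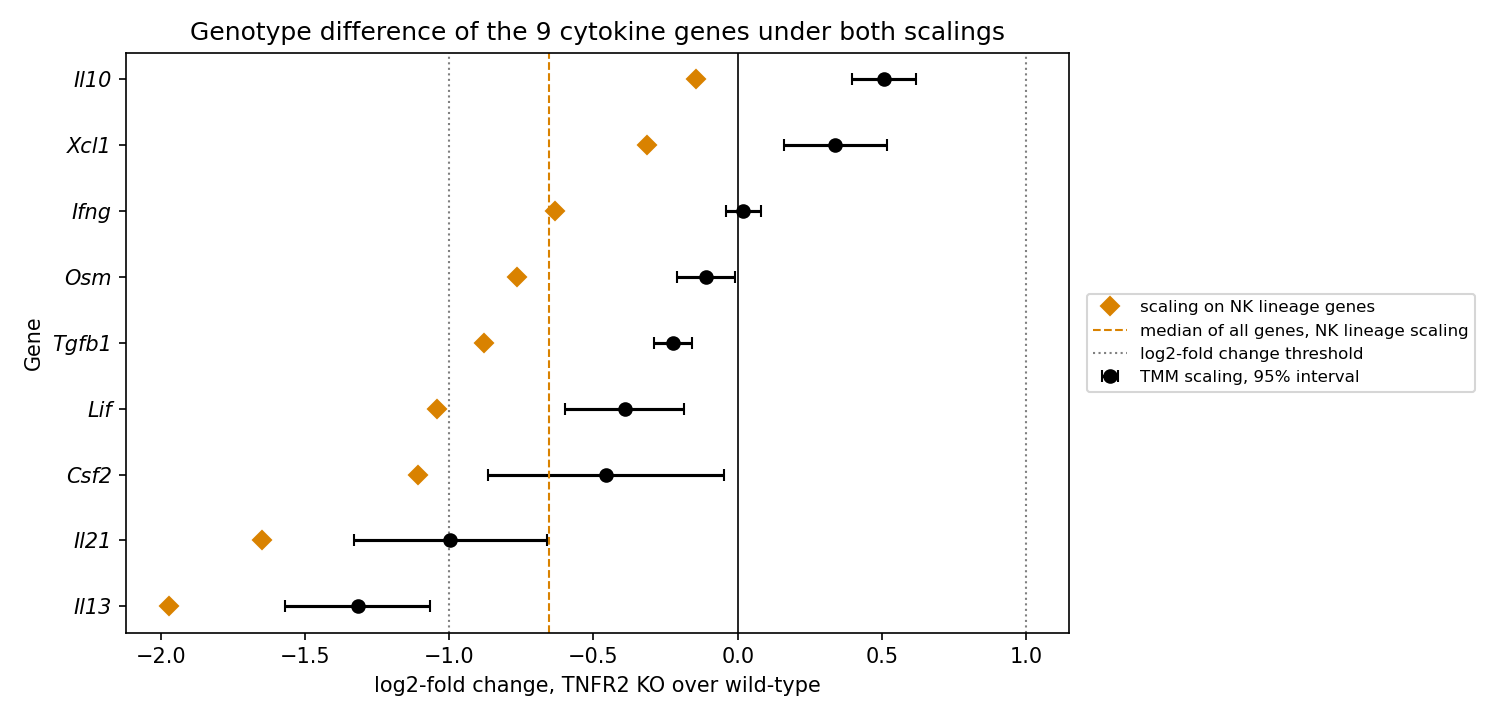
Genotype difference of the 9 genes as log2-fold change, TNFR2 KO relative to wild-type, as black points with 95% intervals on TMM scaling and as diamonds on NK lineage scaling, with dotted lines at a log2-fold change of 1 in either direction. Il10 and Xcl1 lie above 0 on TMM scaling and below 0, at -0.15 and -0.31, on NK lineage scaling, where the dashed median of all genes is -0.66.

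Scaling on 45 NK lineage genes, those left without Xcl1 and the genes that the study's own figure shows, moved the median over all genes tested from -0.003 to -0.66 and made all 9 cytokine genes lower, with log2-fold changes from -1.97 for Il13 to -0.15 for Il10. A change of scaling shifts all genes nearly alike, so values relative to that median are by construction those of TMM scaling, from -1.32 for Il13 to 0.51 for Il10. A ratio between genes of the same library does not depend on the scaling. Relative to Ifng, Il10 stood at 0.176 and 0.171 in wild-type and 0.248 and 0.239 in TNFR2 KO libraries. Il13 relative to Ifng was 0.0815 and 0.0859 against 0.0299 and 0.0366, and Xcl1 relative to Ifng was 0.0700 and 0.0707 against 0.0894 and 0.0861. The genotypes differed in the mix of cytokine transcripts, with more Il10 and Xcl1 and less Il13 and Il21 for each Ifng transcript counted. Such ratios show unequal change and not which gene of a pair changed.

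**Figure D3:**
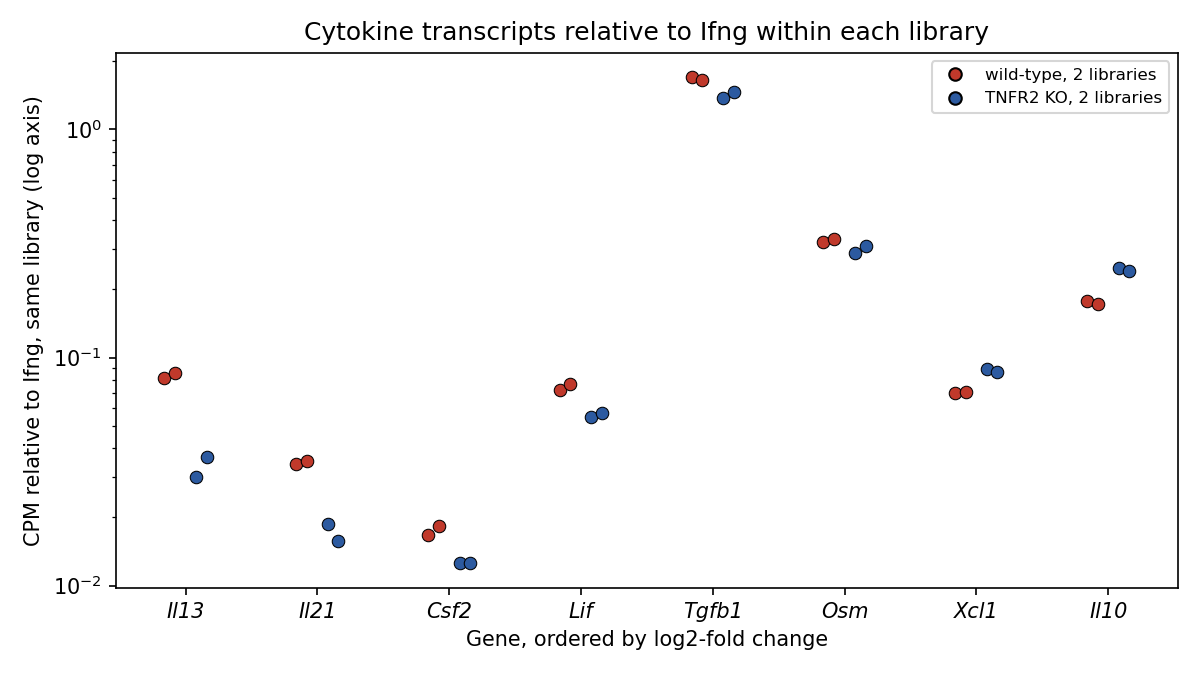
CPM of 8 cytokine genes divided by the CPM of Ifng in the same library, on a log axis, with red points for the 2 wild-type and blue points for the 2 TNFR2 KO libraries. Il10 lies at 0.176 and 0.171 in wild-type against 0.248 and 0.239 in TNFR2 KO libraries, and Il21 at 0.0342 and 0.0352 against 0.0186 and 0.0157.

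Levels of different genes were compared as CPM per kb of exonic length, taken over all annotated exons of a gene. On this scale Ifng led in both genotypes, at 144.9 in wild-type and 146.8 in TNFR2 KO cells, followed by Tgfb1 at 62.1 and 53.2. In wild-type cells Osm (26.9), Xcl1 (25.2) and Il10 (24.9) came next, and the libraries of Xcl1 and Il10 overlapped, so their order is not resolved. In TNFR2 KO cells Il10 (35.3) stood above Xcl1 (31.9), and both stood above Osm (24.9). Il13 was at 13.0 and 5.25, Csf2 at 4.10 and 2.99, Lif at 3.20 and 2.44 and Il21, the lowest, at 1.24 and 0.619 CPM per kb. The summed CPM of the 9 genes was 648.3 and 645.9 in wild-type and 593.5 and 607.1 in TNFR2 KO libraries.

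Receptors of these cytokines divided into chains that rose and chains that fell. Of 19 listed, 17 were tested, 10 fell and 5 rose, 7 of the former past both thresholds, and the median log2-fold change was -0.71, while NK lineage scaling made 17 lower and none higher. The lower ones included the GM-CSF receptor, with the shared chain Csf2rb at 234.6 CPM in both wild-type and 17.6 CPM in both TNFR2 KO libraries and Csf2ra at a log2-fold change of -2.78. Csf2rb2, a paralog of Csf2rb that the list includes, was at -4.05. Csf2rb and Csf2rb2 are similar genes between which reads may be split uncertainly. For the IFN-gamma receptor, the ligand-binding chain Ifngr1 was at 335.6 and 340.1 CPM in wild-type libraries but 493.9 and 504.4 CPM in TNFR2 KO libraries, and the signalling chain Ifngr2 was at 25.1 and 24.1 against 3.59 and 3.65 CPM. The common gamma chain Il2rg, which IL-21 uses, had a log2-fold change of 0.44 and Il21r, its partner, one of -0.02 with an adjusted p of 0.669 in edgeR's test. The IL-10 receptor chains Il10ra and Il10rb were at 0.10 and 0.46 and Tgfbr2 at 0.24, all with adjusted p under 0.05, although Il10ra missed it without wild-type replicate 2 (0.088) and without TNFR2 KO replicate 2 (0.085). The other TGF-beta receptor chains listed, Tgfbr1 and Tgfbr3, were lower at -0.21 and -1.44, both with adjusted p under 0.05 in edgeR's test. NK lineage scaling turned the values of Ifngr1, Il2rg, Il10ra, Il10rb and Tgfbr2 below 0. Csf2rb, Csf2ra and Ifngr2 are also abundant in macrophages or granulocytes, whose markers moved in the same direction, and the part of those cells was not tested.

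Of 25 inducers and transcription factors of the cytokines, all tested, 13 rose, 4 fell and none passed both thresholds, with a median log2-fold change of 0.17, and with the replicate block 5 fell. NK lineage scaling left none higher and 24 lower. Stat4, which carries the IL-12 signal to Ifng, was at 158.5 and 158.4 CPM in wild-type and 224.3 and 227.5 CPM in TNFR2 KO libraries, and the log2-fold change of 0.51 was one that NK lineage scaling turned to -0.14. The T-box factors Tbx21 and Eomes, which drive Ifng, had log2-fold changes of 0.47 and 0.69 (Tbx21 -0.18 on NK lineage scaling). Il18rap of the IL-18 receptor had 0.42. Tbx21, Eomes and Il18rap were among the 45 genes that set the NK lineage scaling. Il12rb2 and Il18r1, through which IL-12 and IL-18 also act, were at 0.01 and 0.05 and did not pass. Il12rb1, the other IL-12 receptor chain listed, was higher at 0.22 on TMM scaling (adjusted p = 0.000225 in edgeR's test). Maf, which is known to promote Il10 and stands in the macrophage or monocyte list too, was at -0.57, where Il10 was at 0.51 on TMM scaling and at -0.15 on NK lineage scaling. Gata3, which is known to drive Il13, was at 124.3 and 129.6 CPM in wild-type and 127.6 and 123.8 CPM in TNFR2 KO libraries. Those Gata3 values overlapped, with a log2-fold change of -0.01 and an adjusted p of 0.777 in edgeR's test. Ets1 was at 0.29 on TMM scaling and at -0.36 on NK lineage scaling.

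Among 12 genes of cytokine mRNA decay and stability, 4 fell, 4 rose and the median log2-fold change was 0.01, while NK lineage scaling made all 12 lower. Zfp36, which encodes tristetraprolin, a protein that destabilizes cytokine mRNAs, was at 237.2 and 248.1 CPM in wild-type and 202.7 and 209.8 CPM in TNFR2 KO libraries (log2-fold change -0.23). Its relative Zfp36l2 was at 0.24, Hnrnpd at -0.13, and Khsrp at 0.01 with an adjusted p of 0.810 in edgeR's test. Zc3h12c, of the regnase family, was the sole one past both thresholds, at -3.17 from a low level of 5.27 and 5.64 CPM in wild-type.

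TGF-beta1 is secreted in a latent form and needs cleavage and release, and 9 of 14 listed genes of these steps were tested, 4 lower and 5 higher. Furin, the protease that cleaves the precursor, was at 799.0 and 819.8 CPM in wild-type and 526.8 and 526.7 CPM in TNFR2 KO libraries (log2-fold change -0.62). Nrros, which anchors latent TGF-beta1 on myeloid cells, was at -0.46 and Itgb1 at 0.11. The latent binding proteins went both ways, with Ltbp3 at 1.15 and Ltbp4 at 1.77 but Ltbp1 at -1.91, and Thbs1, which can activate the latent form, was at -2.79. Ltbp3 reached 13.6 CPM in TNFR2 KO replicate 2, and the other 3 were lower in every library. On NK lineage scaling 7 genes of the list were lower and 2 higher.

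Other lymphocyte cytokines, 23 listed and 15 tested, included 5 lower, all past both thresholds, and 6 higher, 1 of them past both, or 10 lower and 3 higher on NK lineage scaling. The lower count was 4 with DESeq2, with no filter, with a mean of at least 10 CPM, with the replicate block and with any one library left out. The gene lost was Lta, which encodes lymphotoxin alpha and had 5 to 22 counts per library. With a mean of at least 10 CPM, Il6 was left out too. It was at 5.62 and 5.51 CPM in wild-type and 0.75 and 0.44 CPM in TNFR2 KO libraries. The lower genes of that setting were thus not simply those of the main fit without Lta. The chemokines Ccl5, Ccl4 and Ccl3, abundant products of NK cells, had log2-fold changes of 1.28, 0.88 and 0.64, although NK lineage scaling brought Ccl3 to -0.01. Ccl5 was at 1150 and 1178 CPM in wild-type and 2884 and 2764 CPM in TNFR2 KO libraries. Tnf, the ligand of TNFR2, was at 18.0 and 18.7 CPM in wild-type and 2.71 and 3.56 CPM in TNFR2 KO libraries. The study names various immune cells, NK cells among them, as producers of TNF. It also reports that TNFR2 KO NK cells produced less TNF than wild-type ones in an assay outside the host. Macrophage or monocyte markers were lower as given above, and their part in the Tnf result was not tested. Csf1 at -1.26 and Il6 at -3.20 were lower as well, and both stand in the basophil or mast cell list too. Il9, Il24 and Il31 had 0 counts in every library, and a count of 0 allows up to 3.

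The list of IFN-gamma response genes had 18 lower and 3 higher of 23 tested, with a median log2-fold change of -0.53, while Ifng itself was at 0.02. The 3 higher genes were Irf8 (0.60), Irf9 (0.19) and Nlrc5 (0.18) on TMM scaling. Among all genes tested, 26.2% were lower and 24.2% higher at an adjusted p under 0.05. None of the list was higher on NK lineage scaling. Gbp2, a guanylate-binding protein, was at 829.0 and 813.1 CPM in wild-type and 224.4 and 220.9 CPM in TNFR2 KO libraries. Gbp5 was at -2.01, and the chemokines Cxcl9 and Cxcl10 were at -3.85 and -2.94. Irf1 was at -0.30, and Tap1, of antigen presentation, was at -0.03 with an adjusted p of 0.313 in edgeR's test. Macrophages are a known source of Cxcl9 and Cxcl10, and their markers were lower as given above, but their part was not tested.

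**Figure D4:**
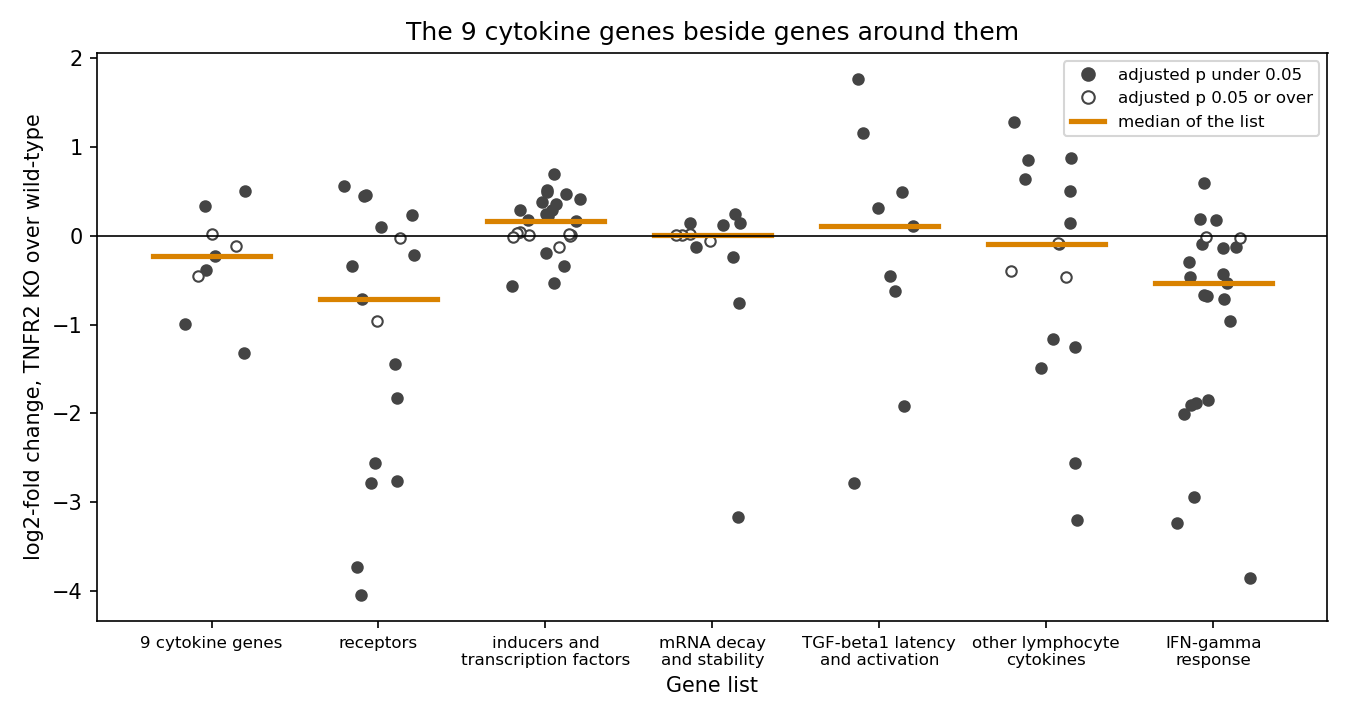
Genotype difference, as log2-fold change of TNFR2 KO relative to wild-type, on TMM scaling for each tested gene of 7 lists, with filled points for an adjusted p under 0.05, open points for the others and an orange bar at the median of the list. The 9 cytokine genes lie between -1.32 and 0.51, while the receptor list, with Csf2rb2, and the IFN-gamma response genes reach -4.05 and -3.85.

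Several of the 9 genes lie in clusters of cytokine genes, and the nearest protein-coding genes in the count table are given here. Il4, 12.7 kb from Il13, was at 2.08 and 2.03 CPM in wild-type and 1.37 and 1.78 CPM in TNFR2 KO libraries, and its log2-fold change of -0.39 did not pass (adjusted p = 0.213 in edgeR's test). Rad50, 14.8 kb away on the other side of Il13, was at -0.12. Il3 next to Csf2 had 1 to 7 counts per library, Il2 next to Il21 had 3 to 10 and Il19 next to Il10 had 0 to 7. Mapkapk2, 28.7 kb from Il10, had a log2-fold change of -0.39 where Il10 had 0.51, the latter turning to -0.15 on NK lineage scaling. Dyrk2, as far as 410 kb from Ifng, was at 0.37, Castor1 next to Osm at 0.32 and Ccdc97 next to Tgfb1 at -0.17, whereas B9d2 next to Tgfb1 and Cetn4 next to Il21 did not pass. NK lineage scaling turned Dyrk2 and Castor1 below 0. Castor1 ranged from 0.14 without wild-type replicate 1 to 0.54 without wild-type replicate 2, and it missed the threshold without wild-type replicate 1 and without TNFR2 KO replicate 2 (0.23). Rad50 missed it without TNFR2 KO replicate 1 or either wild-type library (-0.09 to -0.13), and Ccdc97 without TNFR2 KO replicate 1 (-0.13). Hormad2 next to Lif and P4ha2 next to Csf2 had at most 21 counts, and Gm9049, 86.9 kb from Ifng, had 0 or 1. Dpt and Tbx19, at 107 and 202 kb from Xcl1, had 0.

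The genes whose levels were most like those of Ifng over the 4 libraries, by the root mean square difference in log2 CPM, were Tmem123 (0.00817), Vav1 (0.0173) and Calu (0.0231). For Xcl1 they were Endov (0.0127), Gprasp1 (0.0259) and Gm21926 (0.0274), which were at 13.1 to 13.5 CPM in wild-type and 16.0 to 17.1 CPM in TNFR2 KO libraries. These rankings rest on 4 libraries and on level as much as on pattern.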

How the data were processed

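The authors trimmed paired-end reads of poly-A selected, strand-specific libraries with Trimmomatic (v.1.4), assigned them to mm10 transcripts with Kallisto (v.0.46.1) and summed them per gene with Tximport. The deposited values are estimated counts (expected counts) per gene symbol, unscaled between libraries. Which transcript annotation was used is not stated here. A row without a gene name (0.0559% to 0.0728% of counts) was left out.

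Counts were rounded and filtered with filterByExpr. In edgeR 4.0.16 under R 4.3.3, a quasi-likelihood fit with TMM factors and a single term for genotype was tested, and p-values were adjusted over 13822 genes by the Benjamini-Hochberg method. Calls used an adjusted p under 0.05 and, where stated, an absolute log2-fold change over 1, as in the study. The steps were tested on simulated data. Those had few changed genes and no planned excess of lower ones, unlike these libraries, so they could not test the choice of scaling. Duplicates differed by more than sampling noise (chi-square per gene 3.29 in wild-type and 3.49 in TNFR2 KO libraries, where counting alone gives 1), the biological coefficient of variation was 3.33%, and p-values measure only the spread between these libraries. The study describes 1 experiment done in duplicate on a pooled spleen sample of 3 infected mice. It does not say whether each duplicate had a pool of its own. Labels state that same-numbered libraries share pooled spleens, so the numbers pair the samples, although their deviations correlated at only 0.0188 across genes. Intervals cover the spread between these libraries and counting error.

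The 9 genes and all lists were chosen with earlier results of these data known. The lists were receptors, inducers and transcription factors, mRNA decay, TGF-beta1 latency, other lymphocyte cytokines, IFN-gamma response, NK lineage and 10 cell type lists. Named genes are the 9, Tnfrsf1b, the 3 most abundant genes of each list that is no cell type list and up to 4 past both thresholds with the smallest adjusted p, chromosome neighbours, the most abundant gene of each cell type list, and the 3 genes most like Ifng and Xcl1. Il10ra, Il10rb, Il21r, Il12rb2, Il18r1, Stat4, Tbx21, Eomes, Gata3, Maf, Zfp36, Irf1, Mcpt8, Lta and Klra8 were named after their values were seen. So were Il12rb1, Tgfbr1, Tgfbr3, Irf8, Irf9 and Nlrc5. One gene that this rule names is not reported here. Positions and shared 31-base stretches come from GENCODE M21 on GRCm38.

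Other scalings were upper-quartile, DESeq2 size factors, NK lineage genes and library size alone. Further alternatives were the replicate block, a test with DESeq2 1.42.0, a floor of 10 CPM on the mean, no filter, and each library left out. Plots used matplotlib 3.10.9 in Python 3.11.15.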

Additional observations from a re-analysis of the deposited data

Results flagged for a closer look

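Counts in the row of the table that names no gene, which no comparison used, took a larger share of the TNFR2 KO libraries than of the wild-type libraries. The share was 0.0716% in TNFR2 KO replicate 1 and 0.0728% in TNFR2 KO replicate 2, against 0.0559% and 0.0561% in wild-type replicates 1 and 2. Groups of 2 libraries are too small for a check of single libraries that stand apart.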

How the results depend on the processing

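Of 106 values of the 9 genes under the alternatives, 94 kept their direction and their side of the threshold and 5 reversed. Ifng, which did not pass, reversed with library size alone (-0.042), NK lineage scaling (-0.63) and a mean of at least 10 CPM (-0.017). NK lineage scaling gave Il10 -0.15, Xcl1 -0.31, Csf2 -1.11 and Osm -0.76. Of the 9 genes it made 9 lower and 0 higher, with 4 past both thresholds. It called 11769 genes over the whole table, 3084 past both, where the main fit had tested 13822. Those calls were not split by direction, but the table's median was -0.66 on that scaling. The 9 lower genes are thus read against a table in which most genes were called and the median was below 0. Osm passed with library size alone (-0.17) and with at least 10 CPM (-0.15), as did Csf2 with library size alone (-0.52), where 2 of the 9 genes passed both thresholds. With at least 10 CPM 480 genes passed both thresholds, fewer genes being tested, and Csf2 and Il21 gave no value. With each library left out, Lif ranged from -0.43 to -0.33 and Osm from -0.15 to -0.059, the 9 genes had 3 to 5 lower and 1 to 2 past both thresholds, and mRNA decay had 2 to 4 higher.

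NK lineage scaling gave, lower and higher, 17 and 0 receptors, 24 and 0 inducers, 12 and 0 decay genes, 7 and 2 TGF-beta1 latency genes and 10 and 3 other cytokines, with 0 IFN-gamma response genes higher. Library size alone gave 1 decay gene higher, and at least 10 CPM 2 lower and 3 higher latency genes. Named genes below 0 with NK lineage scaling were Il2rg -0.21, Ifngr1 -0.090, Tgfbr2 -0.41, Ets1 -0.36, Il18rap -0.23, Zfp36l2 -0.41, Khsrp -0.64, Itgb1 -0.54, Ccl3 -0.011, Il10ra -0.56, Il10rb -0.20, Il12rb2 -0.64, Il18r1 -0.61, Stat4 -0.14, Tbx21 -0.18, Dyrk2 -0.28, Castor1 -0.33, Pecam1 -0.34, Ighm -0.33, Tmem123 -0.64, Calu -0.59, Endov -0.33, Gprasp1 -0.34 and Gm21926 -0.32. Library size alone gave Khsrp -0.051, Il12rb2 -0.046, Il18r1 -0.013 and Tmem123 -0.049, and at least 10 CPM gave Khsrp -0.026, Il12rb2 -0.022 and Tmem123 -0.024. Vav1 was 0.0049 with upper-quartile scaling and 0.0014 with no filter. With each library left out, Khsrp ran from -0.011 to 0.048, Il21r from -0.046 to 0.020, Gata3 from -0.035 to 0.025 and Vav1 from -0.0060 to 0.014. NK lineage scaling moved the median of all genes from -0.003 to -0.66, so values above 0 by less than that shift went below 0. The cause of the shift and of the other reversals was not tested. Il12rb1, Tgfbr1, Tgfbr3, Irf8, Irf9 and Nlrc5 are not given gene by gene under the alternatives.

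The paired analysis, with the replicate block, called 1830 genes past both thresholds and DESeq2 called 1603, against 1842 in edgeR without the block. With the block the count of lower inducers went from 4 to 5 and that of lower other cytokines from 5 to 4. Lta no longer passed there. The block changed no other call of a gene given under the alternatives. Csf2 and Il21, at 76 to 244 counts, are limited most by depth, and 2 libraries per genotype limit all values.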
